A study of Homo sapiens with 12 samples.

Results

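The comparison described here is the effect of UVA light in cells whose RNA already carries 4-thiouridine (4SU). It set 3 ribosome footprint libraries of cells given 4SU and UVA against 3 of cells given 4SU only, 6 of the 12 libraries in the series. All cells were HAP1, a near-haploid adherent human line that descends from KBM-7 leukaemia cells, recorded as wild type and grown in IMEM. The 4SU group received 5 uM of the nucleoside for 18 h and no light. The 4SU+UVA group received the same 5 uM for 18 h and then UVA at 6 kJ per square metre, and was harvested after 30 min. The remaining 6 libraries, of untreated cells and of cells given the same light without 4SU (UVA), show what the light did without the nucleoside and share no library with the first comparison. Each group held 3 replicates of 1 cell line, so the p-values cover the spread between these samples.

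4SU is a uridine analogue that cells build into newly made RNA. UVA light excites it, and the excited base can bond covalently to protein that touches the RNA. Ribosome profiling digests the stretches of mRNA that ribosomes do not cover and counts the protected fragments, so the density of fragments on a gene follows both the amount of its mRNA and the ribosomes on it. These cannot be told apart from footprints alone. Levels are given as RPKM, reads scaled by transcript length and by library total, and the lengths are those recovered from the deposited values. RPKM is relative to each library's own total, so a rise or fall is a change in share and not in absolute footprints.

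Depth was 3991129, 4450172 and 4514227 reads in the 4SU libraries and 5526950, 1899854 and 3044856 reads in the 4SU+UVA libraries. Across genes, log2 values of replicates correlated at 0.987 to 0.989 within 4SU and 0.982 to 0.988 within 4SU+UVA, and at 0.949 to 0.970 between the groups. Genes were kept where at least 3 of these 6 libraries reached 1 RPKM, which left 11337 of the 19580 in the table. Of those, 104 reached 1 RPKM in every 4SU+UVA library and in no 4SU library, and 8 the other way round. A gene that enters through 1 group had to differ, and 80 of the 104 and 6 of the 8 are among the calls below. The identifiers in the table matched no symbol in the reference at hand, so genes are named by Ensembl identifier, their functions are not given, and the identity of the line was not checked against marker genes.

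UVA moved the footprints of a large part of the genes when 4SU was present. Density was higher in 4SU+UVA than in 4SU at 2879 genes, 25.4% of those tested, and lower at 2184, or 19.3% (limma on log2(RPKM + 0.5), Benjamini-Hochberg adjusted p under 0.05). Most changes were small. At least 2-fold rises were found at 302 genes and at least 2-fold falls at 164, and at least 4-fold changes at 24 rising genes and 1 falling gene. The rising genes reached much further than the falling ones, to a log2 change of 6.13 against -1.83 among the genes that met the rule for naming. The median over all genes was a log2 change of 0.09, and small changes are best read against that value.

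**Figure D1:**
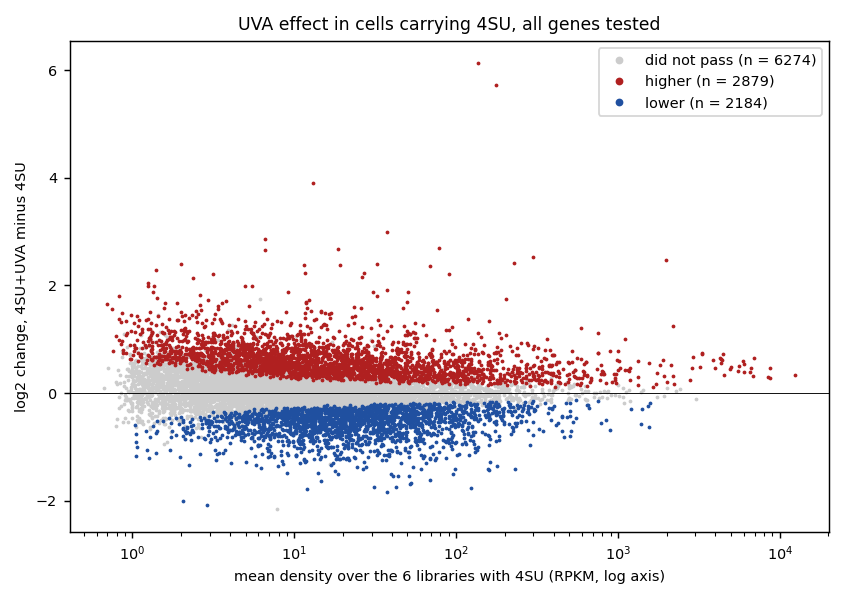
Log2 change of 4SU+UVA against 4SU (vertical axis) plotted over the mean density of the 6 libraries with 4SU in RPKM (log axis), 1 point per gene. Red points are the 2879 genes called higher, blue points the 2184 called lower and grey points the genes that did not pass, and rises extend further from 0 than falls do.

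Few genes passed for the same light without 4SU, in a model that took 1 spread from all 4 groups. Unlike the comparison with 4SU, this one was not refitted on its own 6 libraries. How far the shared spread set its counts was therefore not tested. Against untreated cells, UVA raised 32 genes, 0.282% of the 11337, and lowered 43, or 0.379%. The difference between both effects was tested as such: the change with 4SU lay above that without 4SU at 1242 genes (11%) and below it at 1625 (14.3%). The count of genes raised by UVA alone depended on single libraries, since it fell to 16 without UVA replicate 1, to 18 without UVA replicate 2, to 20 without untreated replicate 2 and to 19 without untreated replicate 3.

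The largest rise was that of ENSG00000120738, whose transcript has 3137 nt. It stood at 3.35, 3.3 and 3.11 RPKM in the 4SU libraries and at 179, 318 and 318 RPKM in the 4SU+UVA libraries, which is 70.1-fold (log2 6.13, SE 0.18, limma adjusted p = 2.3e-11). Every library with both treatments lay far above every other library of the series, because untreated cells held 3.03 to 3.87 RPKM and cells given UVA alone 4.17 to 5.32 RPKM. The effect of light with 4SU exceeded that without it by 5.74 on the log2 scale (SE 0.26, limma adjusted p = 1.2e-08).

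ENSG00000177606 followed the same pattern from a level of 5.77, 7.04 and 5.31 RPKM with 4SU to 251, 379 and 418 RPKM with 4SU+UVA, or 52.6-fold (log2 5.72, SE 0.17, limma adjusted p = 2.3e-11). UVA alone took it from 5 to 6.63 RPKM in untreated cells to 9.25 to 12.3 RPKM, groups that did not overlap, but that change of 0.75 did not pass (limma adjusted p = 0.085). ENSG00000170345 was read at 1.31, 1.82 and 0.526 RPKM with 4SU and at 18.1, 33 and 22.9 RPKM with 4SU+UVA, a 15-fold rise (log2 3.91, SE 0.34, limma adjusted p = 6.4e-07). Its 4SU libraries hold 33 reads in all and the 4SU+UVA libraries 490. ENSG00000160888 was well read in every group, with 20.8, 21 and 18.6 RPKM in 4SU and 104, 146 and 157 RPKM in 4SU+UVA (log2 2.70, SE 0.14, limma adjusted p = 5e-09), while the UVA libraries at 24.4 to 29.6 RPKM overlapped the untreated ones at 20.8 to 27.2 RPKM. In each of these 4 genes 4SU+UVA replicate 1 was the lowest of its group.

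A second set of large rises had another order among replicates. ENSG00000170365 was the most densely covered of the 15 largest rises, at 760, 534 and 415 RPKM in 4SU and 3098, 5247 and 1772 RPKM in 4SU+UVA, or 5.55-fold more (log2 2.47, SE 0.30, limma adjusted p = 1.7e-05). Alone it took 0.126%, 0.0885% and 0.0688% of the reads in the 4SU libraries and 0.514%, 0.87% and 0.294% in the 4SU+UVA libraries. Replicate 2 was the highest and replicate 3 the lowest 4SU+UVA library here, and in 8 of the 15 largest rises. The other 7 had replicate 1 lowest.

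The long transcripts ENSG00000251322 (7260 nt) and ENSG00000165392 (7575 nt) belong to that set of 8. ENSG00000251322 rose from 103, 71.6 and 65.7 RPKM to 544, 775 and 226 RPKM (log2 2.53, SE 0.31, limma adjusted p = 1.4e-05), and ENSG00000165392 from 90.8, 69.8 and 45.3 RPKM to 313, 633 and 225 RPKM (log2 2.42, SE 0.35, limma adjusted p = 7e-05). The rule for naming took only genes whose groups did not overlap. In both genes the highest 4SU+UVA library exceeded the lowest by more than the highest 4SU library exceeded the lowest. ENSG00000116661, read at 31.9, 18 and 14.3 RPKM and then at 126, 164 and 58.2 RPKM, ENSG00000111729, at 14.1, 9.36 and 5.98 and then 57.9, 77.2 and 30.2 RPKM, and ENSG00000105464, at 5, 2.77 and 2.09 and then 18.8, 29.1 and 11.1 RPKM, repeated both orders. Over the 15 rises, 4SU replicate 1 was the highest and replicate 3 the lowest of the 4SU group in 10.

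The remaining rises had few reads with 4SU or had a higher mean with light alone as well, although only 1 of the 15 passed with UVA alone. ENSG00000244734, with 35 reads in the 4SU and 212 in the 4SU+UVA libraries, rose from 4.79, 4.65 and 3.53 RPKM to 36.3, 46.9 and 15.7 RPKM (log2 2.67, SE 0.29, limma adjusted p = 5.2e-06). Both ENSG00000244734 and ENSG00000235034 belong to the set of 8 with replicate 2 highest and replicate 3 lowest. ENSG00000235034 had 12 reads in the 4SU libraries and 81 in the 4SU+UVA libraries, at 0, 1.77 and 1.75 RPKM and then 9.27, 22.8 and 3.88 RPKM. Its log2 change of 2.87 (SE 0.61, limma adjusted p = 0.0016) ranged from 2.15 to 3.86 over the alternatives tried, so its size is poorly fixed. ENSG00000128342 likewise had 10 and 61 reads (log2 2.66, SE 0.46, limma adjusted p = 0.00031).

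ENSG00000116717 rose with light whether or not 4SU was present. With the nucleoside it went from 10.3, 8.63 and 5.67 RPKM to 60.8, 74.2 and 66.4 RPKM (log2 2.99, SE 0.29, limma adjusted p = 1.7e-06), and without it from 11.6, 8.49 and 6.59 RPKM to 58.8, 48.2 and 22.6 RPKM (log2 2.15, SE 0.29, limma adjusted p = 0.00099). The effects differed by 0.84 (SE 0.41), which did not pass (limma adjusted p = 0.15). ENSG00000130513 rose from 8.98, 5.43 and 3.32 RPKM to 22.5, 47.8 and 27.1 RPKM with 4SU (log2 2.38, SE 0.69, limma adjusted p = 0.011), and that call was lost without 4SU+UVA replicate 2 (log2 2.07, limma adjusted p = 0.051). Without 4SU it was read at 8.37, 5.05 and 0.572 RPKM before and 44.9, 43.2 and 8.49 RPKM after the light, groups so spread that a log2 change of 2.80 did not pass (limma adjusted p = 0.11). Of the 15 largest rises, 11 exceeded the effect of light alone by the test of the difference, where 11% of all genes did. The 15 were picked for their change with 4SU, which is part of that difference.

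**Figure D2:**
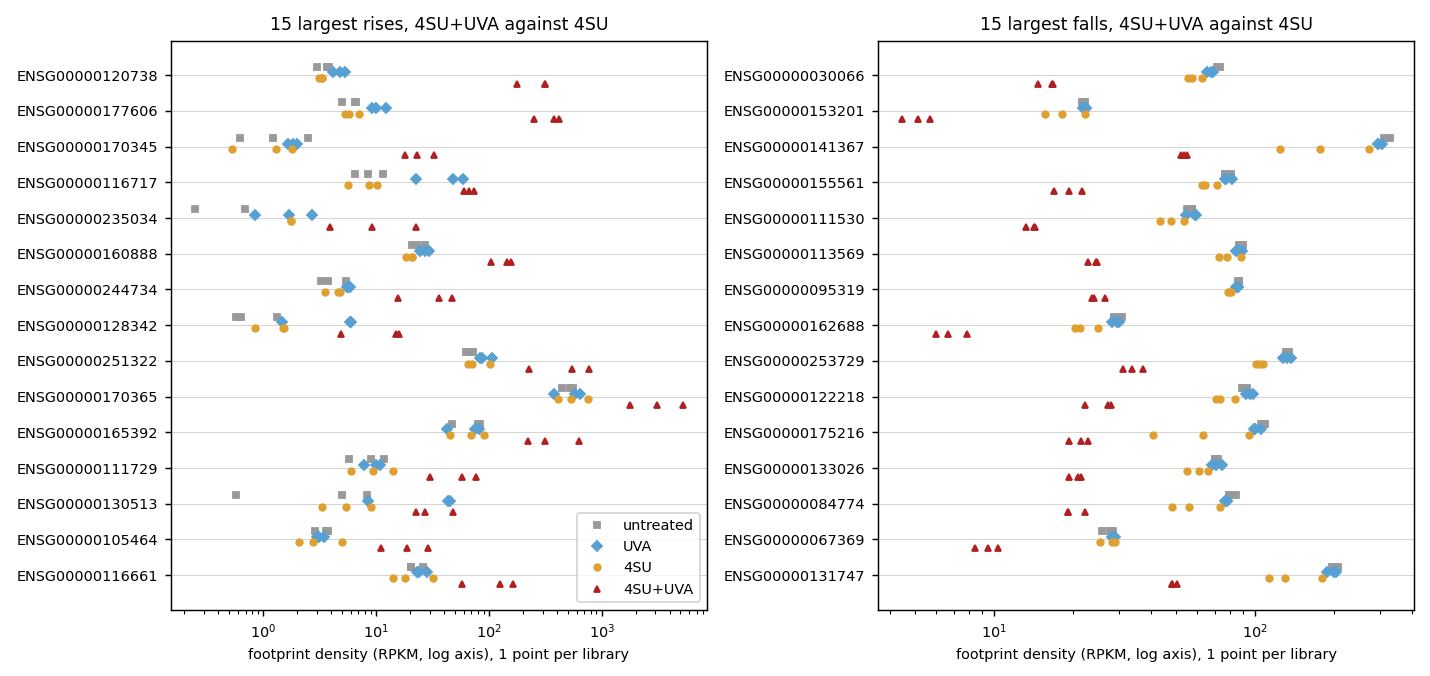
Footprint density in RPKM (log axis) of the 15 largest rises and the 15 largest falls of 4SU+UVA against 4SU, 1 point per library in all 4 groups; values of 0 are not drawn. Red triangles (4SU+UVA) lie apart from the orange 4SU points, as the rule for naming required, are spread widely in many rising genes and lie close together in the falling ones.

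The 15 largest falls were all long transcripts, from 4200 to 12784 nt with a median of 6346 nt, against 2624 nt over all genes tested and a median of 1658 nt over the 15 largest rises. ENSG00000030066 fell most, from 55.3, 57.4 and 62.6 RPKM to 16.7, 14.8 and 16.9 RPKM, 3.55-fold lower (log2 -1.83, SE 0.07, limma adjusted p = 3.6e-10). Untreated cells held 71.4 to 73.6 RPKM and UVA-treated cells 65.6 to 69 RPKM of it. ENSG00000253729, the longest of the 15 at 12784 nt, fell from 107, 101 and 104 RPKM to 31.1, 33.9 and 37.1 RPKM (log2 -1.60, SE 0.07, limma adjusted p = 5.1e-10). Its 4SU and 4SU+UVA libraries hold 17216 and 4460 reads, so counting error is small beside the change.

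ENSG00000095319 was the steadiest of the falls. It was read at 79.1, 79.7 and 81.1 RPKM in the 4SU libraries and at 24.2, 23.8 and 26.6 RPKM in the 4SU+UVA libraries (log2 -1.67, SE 0.06, limma adjusted p = 2e-10). ENSG00000153201, of 11708 nt, fell from 15.7, 18.3 and 22.4 RPKM to 5.13, 4.45 and 5.69 RPKM (log2 -1.78, SE 0.12), and ENSG00000111530, of 11176 nt, from 43.3, 47.7 and 53.6 RPKM to 14.4, 14.2 and 13.3 RPKM (log2 -1.75, SE 0.08). The other named falls were ENSG00000155561, ENSG00000113569, ENSG00000162688, ENSG00000122218, ENSG00000133026 and ENSG00000067369, with log2 changes of -1.75 to -1.50, and the 4 genes of the next paragraph.

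In those 4 genes the 4SU libraries themselves were widely spread. ENSG00000141367 stood at 125, 178 and 274 RPKM with 4SU, against 313 to 329 RPKM in untreated cells, and at 54.7, 53.4 and 51.9 RPKM with 4SU+UVA (log2 -1.77, SE 0.18, limma adjusted p = 2.7e-06). ENSG00000175216 showed the same order, at 40.7, 63.4 and 94.9 RPKM and then 19.4, 21.5 and 22.9 RPKM (log2 -1.54, SE 0.20), below 105 to 109 RPKM in untreated cells. ENSG00000084774 gave 48.2, 56.1 and 73.2 RPKM and then 19.2, 19.2 and 22.4 RPKM, and ENSG00000131747 gave 113, 130 and 181 RPKM and then 48.1, 48.2 and 50.2 RPKM. The 4SU libraries of these genes thus lay between the untreated and the 4SU+UVA libraries, with replicate 1 nearest to the latter. The 4SU libraries also lay between those groups in the other named falls, except ENSG00000153201, ENSG00000113569 and ENSG00000067369. In these exceptions the 4SU and untreated libraries overlapped. Of the 15 falls, 11 had 4SU replicate 1 lowest and replicate 3 highest.

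Replicates with both treatments lay close together in the falling genes and further apart in the rising ones. Among the 15 falls the highest 4SU+UVA library exceeded the lowest by 1.04-fold to 1.32-fold, and among the 15 rises by 1.22-fold to 5.88-fold with a median of 2.63-fold. Together the 15 falls took 0.648%, 0.712% and 0.867% of all reads in the 4SU libraries and 0.226%, 0.228% and 0.244% in the 4SU+UVA libraries, where untreated libraries gave them 0.97% to 0.99%. The 15 rises went from 0.288%, 0.209% and 0.163% to 1.36%, 2.24% and 0.932%. These shares describe genes picked for their change. All 15 falls differed from the effect of light alone, which lay between -0.11 and 0.07 on the log2 scale in them. It passed in none of them (limma adjusted p of 0.76 or more), but the spread in that test came from all 4 groups. Small changes without 4SU are therefore not excluded. ENSG00000141367, for example, held 313 to 329 RPKM in untreated cells and 296 to 306 RPKM with UVA, without overlap. The change with 4SU, for which the 15 were picked, is part of the tested difference, which passed below 0 at 14.3% of all genes.

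Beyond the named genes the order of replicates was similar in part. Of the 302 genes that rose at least 2-fold, 61.9% had their highest 4SU+UVA value in replicate 2, the shallowest library, against 36.2% of all genes tested. Their lowest 4SU+UVA value was more often in replicate 1 (49.7%, against 33.8% of all genes) than in replicate 3 (39.1% against 29.3%). In the 4SU group 49% had replicate 1 highest and 49% replicate 3 lowest, near the 41.9% and 44.8% of all genes. Of the 164 genes that fell at least 2-fold, 74.4% had their highest 4SU value in replicate 3 and 65.2% their lowest in replicate 1, against 27.3% and 25.5% of all genes tested. The part of depth or of any step of library making in these orders was not tested.

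Falling genes had longer transcripts than rising ones. The 2879 rising genes had a median transcript of 2021 nt and the 2184 falling genes one of 3385 nt, and among at least 2-fold changes the medians were 1661.5 nt and 4909 nt. To see how this depended on how densely a gene is covered, genes were divided into 6 classes of length and 3 of mean RPKM over the 6 libraries. The division was made after their changes had been seen. That mean includes the 4SU+UVA libraries, so a rise helped a gene into a denser class and a fall into a sparser one. Among genes of at least 50 RPKM with transcripts under 1000 nt, 331 of 516 (64.1%) rose and 22 (4.26%) fell, with a median log2 change of 0.32. Among those of at least 50 RPKM with transcripts of 4000 nt or more, 16 of 114 (14%) rose and 81 (71.1%) fell, with a median of -0.47, against 25.4% and 19.3% of all genes. The count of 22 short genes that fell was 14 without 4SU+UVA replicate 2 and 47 after quantile normalisation.

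The medians fell step by step with length in densely covered genes. They were 0.44 under 500 nt, 0.28 from there to 1000 nt, 0.03 up to 2000 nt, -0.25 up to 4000 nt, -0.45 up to 8000 nt and -1.05 for the 8 genes of 8000 nt or more. The 3 4SU+UVA libraries each showed it, since the median of the 114 long, dense genes was -0.41, -0.53 and -0.48 in replicates 1, 2 and 3, and that of the 516 short, dense genes was 0.36, 0.31 and 0.30. Light without 4SU gave these sets medians of 0.01 and 0.03. Even so, 36 of the 516 short genes passed as lower with UVA alone and 0 as higher. Of the 114 long genes 2 passed as lower and 0 as higher, where 0.379% of all genes passed as lower. The difference of both light effects passed below 0 at 72 of the 114 long genes and above 0 at 12, and above 0 at 236 of the 516 short genes and below 0 at 10, where 11% of all genes lay above and 14.3% below.

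In sparsely covered genes the medians also went down with length, but that of long transcripts stayed near 0. Under 10 RPKM, 58 of 233 genes with transcripts under 1000 nt rose, a share of 24.9% near the 25.4% of all genes, and 3 fell (1.29% against 19.3%), with a median of 0.48. Without 4SU replicate 3 the count that rose was 37, and with thinned reads 28. Of the 2100 such genes with 4000 nt or more, 351 rose (16.7%) and 309 fell (14.7%), both below the shares of all genes, with a median of 0.06. Which of these counts was larger varied, with 315 higher and 349 lower after median centring, 188 and 505 after quantile normalisation, 164 and 225 with a filter at 5 RPKM, 190 and 221 with thinned reads, 235 and 259 without 4SU replicate 3, 241 and 282 without 4SU+UVA replicate 2, and 267 and 281 without 4SU+UVA replicate 3. At 10 to under 50 RPKM 445 of 916 long genes fell (48.6% against 19.3% of all genes) and 129 rose (14.1% against 25.4%), with a median of -0.25. The sign for sparse long genes depended on scaling: quantile normalisation took the medians of 0.07 at 4000 to under 8000 nt and 0.04 at 8000 nt or more to -0.10 and -0.15. With 0.1 or 1 RPKM added in place of 0.5, the median of the 2100 genes was 0.07 or 0.06.

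**Figure D3:**
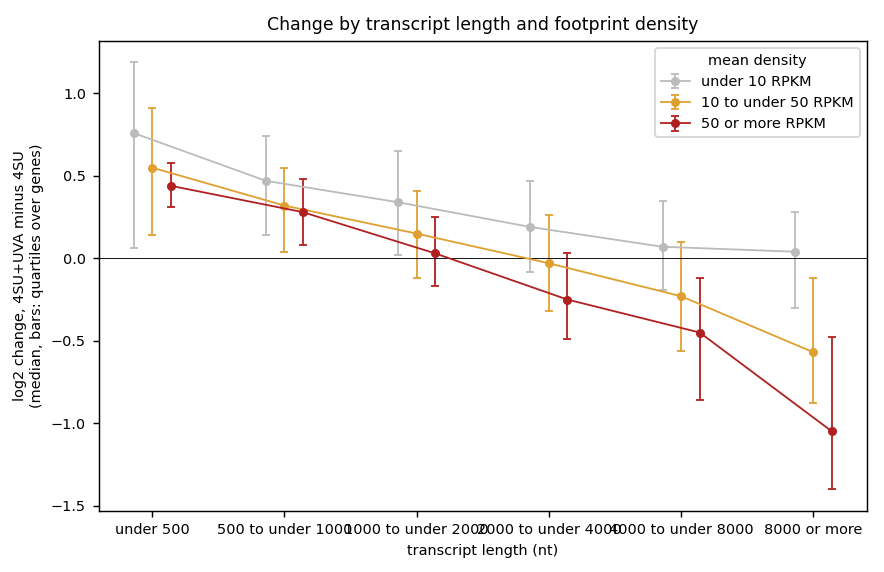
Median log2 change of 4SU+UVA against 4SU (vertical axis) by transcript length class, for genes with a mean under 10, of 10 to under 50 and of at least 50 RPKM over the 6 libraries; bars span the quartiles over genes and are not replicate error. The median of the most densely covered genes goes from 0.44 to -1.05, that of the most sparsely covered ones from 0.76 to 0.04.

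Counted as shares of reads, the same shift was seen without any filter on genes. Transcripts under 500 nt took 4.2%, 4.2% and 3.93% of the reads in the 4SU libraries and 5.52%, 5.89% and 5.9% in the 4SU+UVA libraries. Those of 500 to under 1000 nt took 12.9%, 12.6% and 12% and then 15.6%, 15.7% and 15.7%. At the other end, transcripts of 8000 nt or more went from 4.57%, 4.65% and 4.68% to 3.31%, 3.65% and 3.65%, and those of 4000 to under 8000 nt from 19.9%, 20.3% and 20.6% to 17.8%, 19.2% and 18.3%. Shares rose in the 3 classes under 2000 nt and fell in the 3 above, and the groups did not overlap in any of the 6 (exact two-sided permutation test, p = 0.1 for each and 0.1 adjusted over the 6, the smallest that 3 against 3 can give). Shares sum to a whole, so the classes are not independent.

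With light alone the read shares of both classes under 1000 nt moved the opposite way, although the difference between these shifts was not tested. Shares weigh densely covered genes most. The median gene of at least 50 RPKM hardly moved with UVA alone, by -0.04 on the log2 scale under 500 nt and 0.03 at 500 to under 1000 nt. Transcripts under 500 nt went from 4.00% ± 0.0253 (SD, n = 3) in untreated libraries to 3.20% ± 0.058 (SD, n = 3) with UVA, against 4.11% ± 0.152 and 5.77% ± 0.216 (SD, n = 3 each) without and with light in 4SU-treated cells. Those of 500 to under 1000 nt went from 12.3% ± 0.159 to 11.4% ± 0.127 (SD, n = 3 each) with UVA alone. Neither class overlapped between untreated and UVA libraries (exact two-sided permutation test, p = 0.1 each). The share at 1000 to under 2000 nt rose from 24% ± 0.119 to 24.5% ± 0.172 with UVA alone. That at 2000 to under 4000 nt rose from 34.2% ± 0.0862 to 35% ± 0.0679 (SD, n = 3 each), both without overlap (exact two-sided permutation test, p = 0.1 each). The share at 8000 nt or more was 4.94% ± 0.0802 and 4.99% ± 0.0781 without 4SU (SD, n = 3 each), groups that overlapped.

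**Figure D4:**
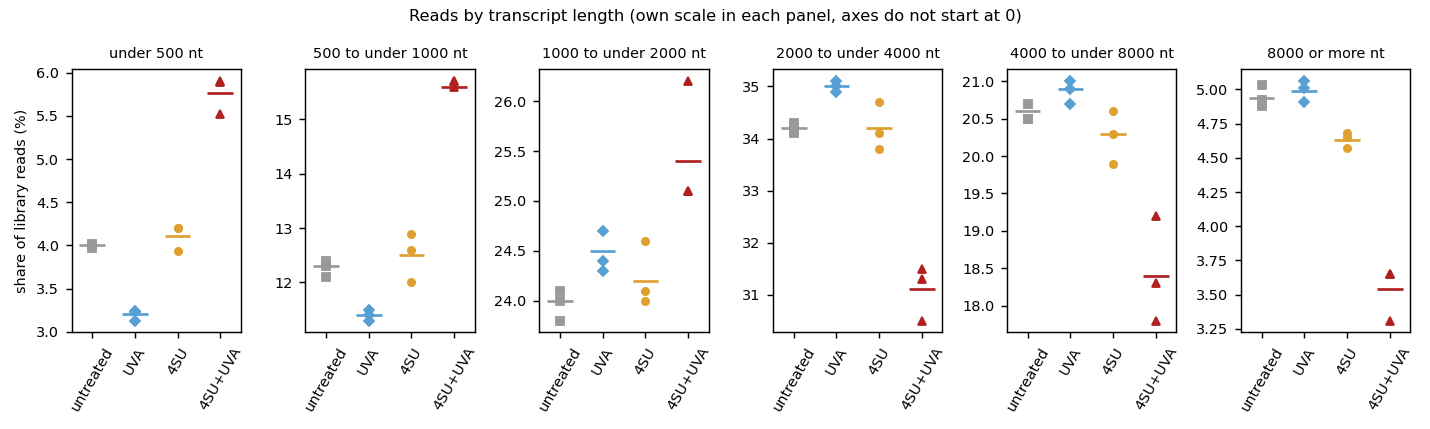
Share of each library's reads in percent (vertical axes, each with its own scale and not starting at 0) that fell on transcripts of 6 length classes, 1 point per library and a line at each group's mean. The 4SU+UVA libraries lie above the 4SU libraries in the 3 classes under 2000 nt and below them in the 3 longer ones.

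The 6 most densely covered genes of the libraries with 4SU show the opposed directions gene by gene. They were chosen for their mean level over the 6 libraries, 4SU+UVA included, so a rise helped a gene into the set. They have short transcripts of 405 to 787 nt. ENSG00000276966 was read at 5440, 5578 and 5214 RPKM with 4SU and at 8046, 8670 and 8665 RPKM with 4SU+UVA (log2 0.64, SE 0.04, limma adjusted p = 7.3e-08), and without 4SU it went from 5180, 5426 and 5231 RPKM to 4285, 4193 and 4366 RPKM (log2 -0.30, SE 0.04, limma adjusted p = 0.0019). ENSG00000286522, at 11064, 11319 and 10389 RPKM with 4SU and 13835, 13815 and 13980 RPKM with 4SU+UVA (log2 0.35, SE 0.04), fell from 10792, 11140 and 10875 RPKM to 9004, 8890 and 9216 RPKM with UVA alone (log2 -0.28, SE 0.04).

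With ENSG00000187837, ENSG00000158406, ENSG00000168298 and ENSG00000197061, all 6 were higher with 4SU+UVA, by 0.29 to 0.64 (25.4% of all genes), and 5 of the 6 passed as lower with UVA alone (0.379% of all genes). The test of the difference passed for all 6, at 0.51 to 0.95 (11% of all genes). These traits were not particular to the 6. Of the 516 genes under 1000 nt with at least 50 RPKM, 331 (64.1%) were higher with 4SU+UVA. In that class 36 passed as lower with UVA alone, and the difference passed above 0 at 236. The rise of the 6 depended on scaling, because quantile normalisation turned ENSG00000187837, ENSG00000168298 and ENSG00000197061 to -0.08, -0.14 and -0.16 and left ENSG00000286522 at 0.00.

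Some long, densely covered genes rose. Among the 114 genes with at least 4000 nt and 50 RPKM, 5 identifiers rose at least 2-fold, picked out here after their values were seen. ENSG00000251322 and ENSG00000165392 are described above. ENSG00000117425, of 4298 nt, rose from 1227, 1399 and 1249 RPKM to 2374, 3846 and 3132 RPKM (log2 1.25, SE 0.12, limma adjusted p = 1.4e-06), with 128788 reads in the 4SU+UVA libraries, and stood at 1048 to 1141 RPKM in untreated and 972 to 991 RPKM in UVA-treated cells. The last 2, ENSG00000112245 and ENSG00000285976, had the same reads in every library (1947 in the 4SU and 3314 in the 4SU+UVA libraries), so they are 1 signal that cannot be placed on either. It rose from 33.2, 35.1 and 29.4 RPKM to 65.7, 82.4 and 64.9 RPKM at the first identifier (log2 1.11, SE 0.10, limma adjusted p = 1.1e-06). Its mean was 32.6 RPKM in 4SU and 71 RPKM in 4SU+UVA, so it reached the class of 50 RPKM only through its high group. Among the genes tested with at least 50 reads, 6 had the same reads as another gene in all 12 libraries.

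The genes that UVA alone raised most were also higher after light with 4SU. UVA alone raised 14 genes at least 2-fold. That choice rests on the levels in the 6 libraries without 4SU, although the filter on low values used those with 4SU and the model shares 1 estimate of the spread over all 12. ENSG00000057657, at 0.161, 0.0961 and 0 RPKM with 4SU and 1.16, 1.69 and 1.83 RPKM with 4SU+UVA, entered only through its high group and is set aside. The other 13 held 1 RPKM or more in all 6 libraries with 4SU, and 13 of 13 passed as higher in 4SU+UVA against 4SU, where 25.4% of all genes did. Their changes were 0.66 to 2.99 with a median of 1.26, beside a median of 1.26 for UVA alone. Reads thinned to equal depth lost 1 of these calls, that of ENSG00000197019 (log2 0.37, limma adjusted p = 0.29). Of all 32 genes that UVA alone raised, ENSG00000057657 included, 25 passed as higher in 4SU+UVA (25.4% of all genes) and 1 as lower (19.3%).

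Of the 14 genes ENSG00000145632 rose most with light alone, from 3.22, 3.54 and 1.97 RPKM to 27.7, 30.2 and 13.5 RPKM (log2 2.78, SE 0.25, limma adjusted p = 4.9e-05). With 4SU it went from 3.78, 3.55 and 3.42 RPKM to 12.2, 17.4 and 14.6 RPKM (log2 1.89, SE 0.25, limma adjusted p = 3.5e-05). ENSG00000159388 went from 18.1, 19.7 and 12.9 RPKM to 68.5, 64.9 and 35.2 RPKM without 4SU and from 16.6, 16.9 and 12.5 RPKM to 57.4, 68.3 and 52.6 RPKM with it (log2 1.67 and 1.92, SE 0.22 each). ENSG00000109670 went from 7.71, 8.46 and 4.78 RPKM to 30.6, 30.1 and 18.9 RPKM, and with 4SU from 7.42, 8.35 and 6.17 RPKM to 16.2, 23 and 26.4 RPKM (log2 1.86 and 1.50). UVA replicate 3 was the lowest of its group in all 14 genes.

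In none of the 14 did the test of the difference pass. The differences ran from -0.89 to 0.84 with standard errors of 0.20 to 0.41, 7 above 0 and 7 below, and the adjusted p-values from 0.08 to 0.95, so a difference of moderate size in either direction was not detectable here. They were chosen for a large effect of light alone, which enters that difference. The 43 genes that UVA alone lowered went the other way with 4SU: 39 passed as higher in 4SU+UVA (25.4% of all genes) and 1 as lower (19.3%), with a median log2 change of 0.49 beside -0.46 for UVA alone. Of the 43, 36 had transcripts under 1000 nt and at least 50 RPKM, a class in which 64.1% of 516 genes passed as higher in 4SU+UVA. The 43 include 5 of the 6 densely covered genes above. Their rise too depended on scaling, since quantile normalisation left 16 higher and 8 lower. At least 2-fold falls with UVA alone were limited to ENSG00000275713, with 19 and 22 reads in the 4SU and 4SU+UVA libraries, whose change with 4SU was 0.42 (SE 0.24, limma adjusted p = 0.17).

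**Figure D5:**
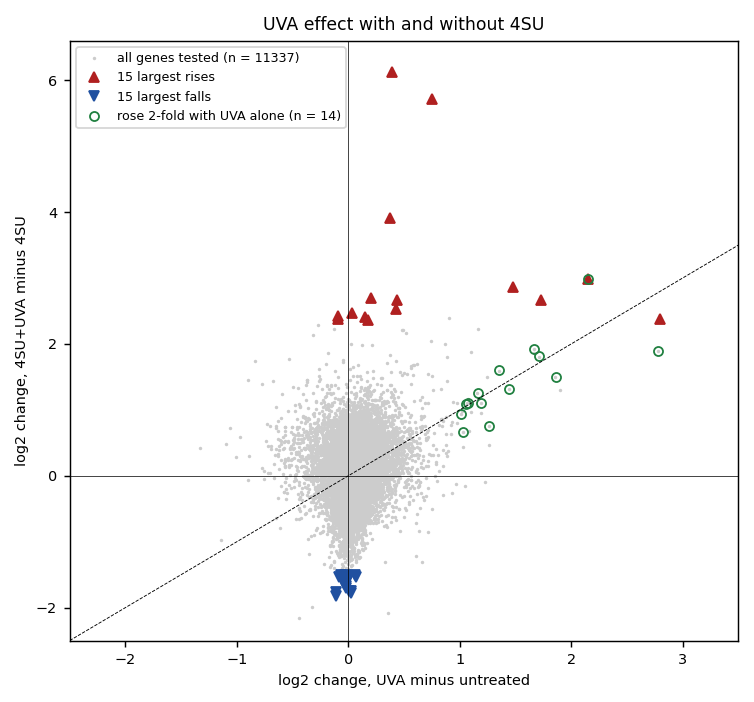
Log2 change of 4SU+UVA against 4SU (vertical axis) over that of UVA against untreated cells (horizontal axis), 1 point per gene; the dashed line marks equal changes. The 15 largest falls (blue) stand near 0 on the horizontal axis, most of the 15 largest rises (red) lie above the line, and the 14 genes raised at least 2-fold by UVA alone (green circles) lie on both sides of it.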

How the data were processed

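The authors deposited 1 table of RPKM values per gene for 12 footprint libraries, which were matched to samples by title. The submitters' processing notes name STAR 2.7.10a and the build hg38. Which tool counted the reads, and on which annotation, is not given in the sources used here, and the labels' protocols describe no molecular identifiers.

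The values proved to be whole read numbers divided by a transcript length and a library total. Lengths, totals and reads were recovered from these steps for all 15937 genes with a read, whole within 0.001 reads, and used for read shares and thinning. The smallest length that made all values of a gene whole was taken. For genes read in few libraries it can therefore be a divisor of the length used by the submitters. Tests used limma 3.58.1 in R 4.3.3 (eBayes with a variance trend, two-sided) on log2(RPKM + 0.5), with 1 model of 4 group means over 12 libraries and 8 residual degrees of freedom, adjusted over 11337 genes. Fold changes are on that scale, which understates changes of low genes. The scripts were tested on simulated data.

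The rule for naming took the 15 largest rises and 15 largest falls among genes that passed at 0.05, averaged 5 RPKM or more and had 50 reads or more over the 6 libraries, without overlap between groups. Others were added after their values were seen, as stated there. The members and lists were chosen with earlier results of these data known. Because 0 identifiers matched a symbol, 41 prepared gene lists, the cell markers and the promoter and protein sequences were not used. Same-numbered replicates of different groups deviated together at r of -0.04 to 0.07, so they were not treated as pairs.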

Additional observations from a re-analysis of the deposited data

Results flagged for a closer look

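For 26 of the 30 named genes the effect of UVA with 4SU differed from that without it, by the test of the difference in the same limma model (adjusted p under 0.05). Of all genes, 11% passed above 0 and 14.3% below. The values listed next are differences of log2 changes. Among the rises they were 5.74 at ENSG00000120738, 4.97 at ENSG00000177606, 3.54 at ENSG00000170345, 2.50 at ENSG00000160888, 2.23 at ENSG00000244734 and 2.11 at ENSG00000251322. The remaining values were those of ENSG00000170365 (2.44), ENSG00000165392 (2.51), ENSG00000111729 (2.25), ENSG00000105464 (2.47) and ENSG00000116661 (2.19).

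Among the falls the difference was -1.72 at ENSG00000030066, -1.80 at ENSG00000153201, -1.66 at ENSG00000141367, -1.76 at ENSG00000155561 and -1.77 at ENSG00000111530. It was -1.67 at ENSG00000113569, -1.64 at ENSG00000095319, -1.60 at ENSG00000162688, -1.59 at ENSG00000253729 and -1.60 at ENSG00000122218. The last 5 were ENSG00000175216 at -1.46, ENSG00000133026 at -1.54, ENSG00000084774 at -1.44, ENSG00000067369 at -1.57 and ENSG00000131747 at -1.47. The genes were selected for their change with 4SU, which is part of the difference.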

How the results depend on the processing

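The count of genes higher with 4SU+UVA ranged from 2275 to 2750 when single libraries were left out and from 2032 (reads thinned to equal depth) to 2932 under the other settings, and the lower count from 1928 to 2091 and from 1780 to 2602. The count raised by UVA without 4SU went from 32 to 19 with median centring, 16 without the filter on low values, 16 without the variance trend and 17 with thinned reads, and ranged from 16 to 31 leaving out a library. The count lowered went from 43 to 22 without the variance trend and 20 with quantile normalisation, and ranged from 34 to 41. Genes whose effect with 4SU lay above that without it went from 1242 to 771 with thinned reads. With the replicate number as a block, 2859 genes rose and 2190 fell with 4SU+UVA, and on the 6 libraries alone the block gave 2600 and 1843 against 2618 and 1868 without it.

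Of 661 values under alternatives, over the 30 genes of the naming rule and the long or densely covered genes, 656 kept direction and call, 2 lost the call and 3 reversed, ENSG00000187837 (-0.08), ENSG00000168298 (-0.14) and ENSG00000197061 (-0.16) under quantile normalisation. Of 306 class medians, 46 moved by more than the spread between replicates. The cause was not tested. Depth limits ENSG00000235034 and ENSG00000128342, with few reads.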
